A study of Schizosaccharomyces pombe with 36 samples.

Results

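The autophagy genes *atg3*, *atg4*, *atg5*, *atg7*, *atg8* and *atg9* of fission yeast were followed through osmotic stress in 36 strand-specific total RNA libraries. They were found by their symbols in the deposited table of expression values, where 6 of the 7039 features, or 6 of the 5133 protein-coding genes, carry these names. WT cells and cells labelled *atf21Δ* were grown in yeast extract medium and sampled just before 1 M sorbitol was added (0 min) and after 15, 30, 60, 120 and 180 min in it, with 3 biological replicates for each of the 12 combinations of strain and time. According to the study's methods the deletion was made by replacing the gene for the transcription factor Atf21 with an antibiotic resistance marker, and the *atf21Δ* libraries carry no other treatment than the WT ones. The values are RPKM, reads on a feature divided by its length and by the library's uniquely mapped reads.

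Autophagy encloses cytoplasm in a double membrane and delivers it to the vacuole, where it is broken down; fission yeast cells use it above all when nitrogen runs out. A pair of reactions that resemble ubiquitin conjugation builds the membrane. Atg4, a cysteine protease, trims the ubiquitin-like protein Atg8 to a glycine, Atg7 activates it as an E1 enzyme does, and Atg3, the E2 enzyme, passes it to phosphatidylethanolamine in the growing membrane. Atg7 also activates Atg12, which is joined to Atg5 and, with Atg16, directs Atg3 to the membrane. Atg9 is no conjugation enzyme: it is the integral membrane protein, a lipid scramblase, of the vesicles from which the membrane starts.

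The sorbitol response was present under both labels: *gpd1* (glycerol-3-phosphate dehydrogenase, which makes the osmolyte glycerol), *ctt1* (catalase) and *hsp9* (a small heat shock protein) all rose by 30 min, *gpd1* by 2.73 in WT and by 3.01 under the other label on the log2 scale. The gene *atf21* itself had reads in every library under both labels. At 30 min it stood at 27.8, 29.2 and 28.1 RPKM in WT and at 15.4, 17.8 and 30.4 RPKM under the *atf21Δ* label, from 509 to 899 reads each. It rose from 0 to 30 min under both, by 5.89 in WT and by 4.73 under the *atf21Δ* label on the log2 scale. Whether the gene is deleted in the libraries so labelled was not tested. The values of *atf21* cover the whole annotated span and do not show whether the deleted part was read, so the groups are called by their labels throughout and no difference between them is credited to the deletion. Depth ranged between 7457173 and 20126545 uniquely mapped reads, and rRNA took between 34.2% and 57.5% of the reads on features. The members had few reads, from 14 to 556 per library.

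In the deposited annotation (PomBase release 11 gene models), *atg3* (SPBC3B9.06c) lies on chromosome II from 3998467 to 3999894, *atg5* (SPBC4B4.10c) from 3432104 to 3433533, *atg7* (SPBC6B1.05c) from 2634227 to 2636702, *atg8* (SPBP8B7.24c) from 3684281 to 3685459 and *atg9* (SPBC15D4.07c) from 3023343 to 3025621, all on the minus strand. *atg4* (SPAC19B12.08) lies on chromosome I from 4897936 to 4900012 on the plus strand. Reads were divided by the whole length of these spans. The end of the *atg8* coding sequence is shown because it holds the place where Atg4 acts. It was read from the RefSeq assembly ASM294v3 (chromosome II, 3684653 to 3684682, minus strand), where all 6 members were matched by symbol and identifier, and the capitals mark the glycine codon that becomes the last one of the trimmed protein, codon 116 of 121, with 5 codons between it and the stop codon.
atg8, end of the coding sequence: aatacatttGGAacagtgtttcctttttag

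At 30 min, all 6 members were higher than at 0 min in both strains, by 1.57-fold (*atg7*) to 3.38-fold (*atg4*) in WT and by 1.37-fold (*atg7*) to 3.29-fold (*atg4*) under the *atf21Δ* label. *atg3* and *atg4* led the rise in both, and were called higher at 15 min already. These changes are differences in log2(RPKM + 0.5) after scaling each library by the trimmed average of its log ratios to a reference, tested by limma at an adjusted p under 0.05 over 5882 features and 5 times. Nearest the threshold in WT at 30 min were *atg5* (adjusted p = 0.039) and *atg9* (adjusted p = 0.040), each still called under 18 of 30 alternative settings. Among all features tested, 15.4% were called higher at 30 min in WT and 20.0% under the *atf21Δ* label. At 15 min the shares called higher were 11.2% and 13.9%, against 2 of 6 members in each strain. Over the whole time course, the F-test called 5 of 6 members in WT, where 51.8% of features passed, and 6 of 6 under the *atf21Δ* label, where 62.3% passed. The WT exception was *atg5*, with an adjusted p of 0.072. At 60, 120 and 180 min 0 of 6 members were called in either strain. The shares of features called higher at those times were 7.46%, 3.42% and 2.84% in WT and 9.06%, 5.07% and 5.10% under the *atf21Δ* label, and those called lower 7.50%, 2.23% and 2.16% in WT and 10.5%, 4.49% and 3.60% under the *atf21Δ* label. Of these 36 comparisons 1 had an unadjusted p under 0.05, and voom called 0. The median change of the 6 members at 30 min was 0.90 in WT and 0.88 under the *atf21Δ* label on the log2 scale, beside -0.02 in each over all features tested. After scaling, every 30 min library stood above every 0 min library for all 6 members in both strains, as it did for 23.4% of features in WT and 26.0% under the *atf21Δ* label.

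**Figure D1:**
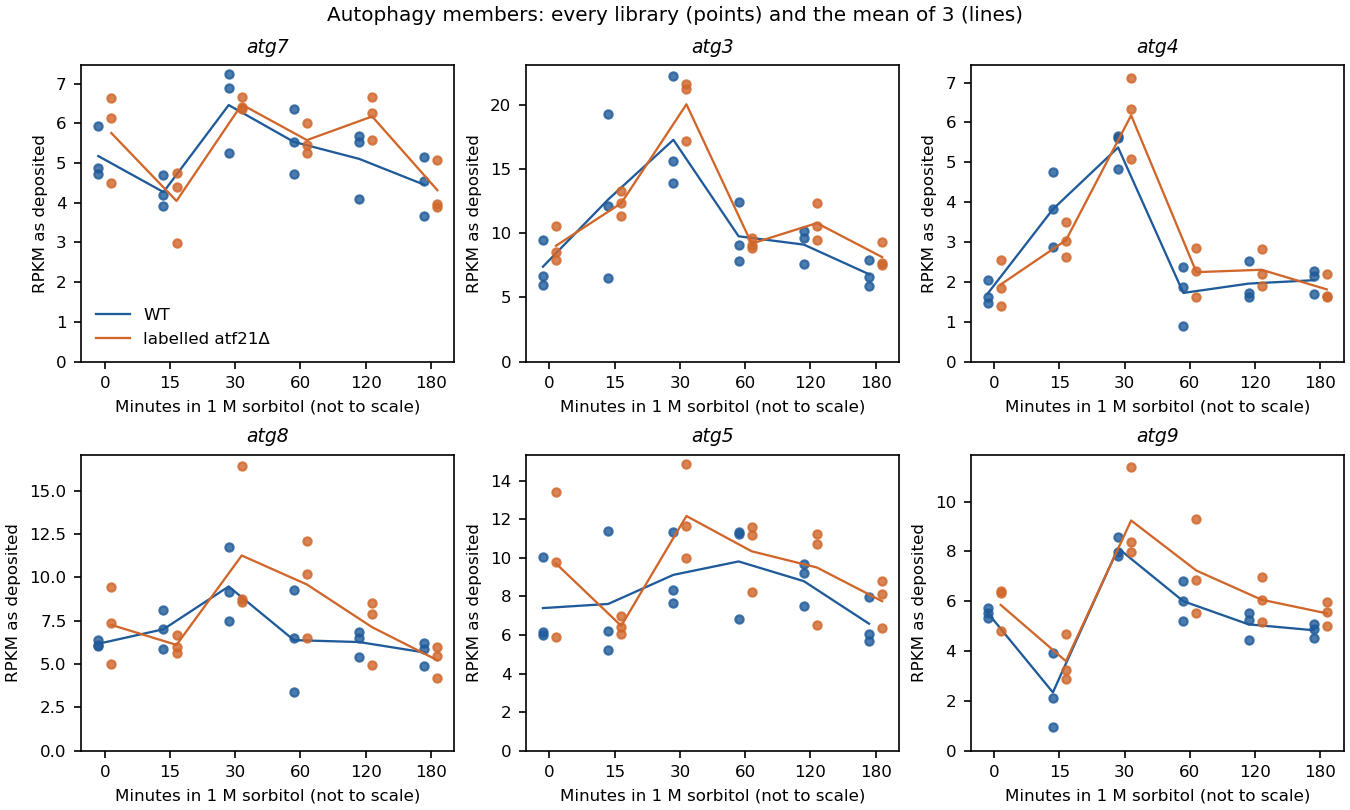
RPKM as deposited (vertical axis, from 0) of each member against the minutes in sorbitol (horizontal axis, evenly spaced), with 1 point per library and lines through the means of 3, WT in blue and the libraries labelled atf21Δ in orange. The means of atg3 and atg4 climb at both 15 and 30 min. Those of atg7 and atg9 drop at 15 min before their 30 min peak, as those of atg5 and atg8 do under the atf21Δ label.

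*atg7* encodes the E1 enzyme at the head of both conjugation reactions. Its estimated change at 30 min was the smallest of the 6, in WT close to that of *atg5* (0.65 and 0.67). The members were not tested against each other. The deposited RPKM of *atg7* in WT was 5.94, 4.88 and 4.71 at 0 min and 6.88, 5.25 and 7.25 at 30 min. Under the *atf21Δ* label it was 4.49, 6.65 and 6.13 at 0 min and 6.36, 6.66 and 6.40 at 30 min. The groups overlap on this scale in both strains. After scaling they no longer overlap, with 4.30 to 5.03 against 6.79 to 9.16 in WT and 4.41 to 5.29 against 5.59 to 7.54 under the *atf21Δ* label. The scaled log2 change was 0.65 (SE 0.16, adjusted p = 0.0096) in WT and 0.45 (SE 0.13, adjusted p = 0.018) under the *atf21Δ* label.

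*atg3* encodes the E2 enzyme and had the highest levels of the 6 at the peak. In WT it went from 9.50, 6.68 and 5.98 RPKM at 0 min through 19.2, 12.1 and 6.54 at 15 min to 22.3, 15.6 and 13.9 at 30 min. From the *atf21Δ* label came 8.56, 10.6 and 7.90 RPKM at 0 min, 11.3, 13.3 and 12.4 at 15 min and 17.2, 21.6 and 21.3 at 30 min. Every 30 min library thus stood above every 0 min library in both strains as deposited, which 10.4% of features did in WT and 11.9% under the *atf21Δ* label, while the WT libraries at 15 min were spread about 3-fold and overlapped those of 0 min. The scaled log2 change was 1.12 (SE 0.24, adjusted p = 0.0032) at 15 min and 1.54 (SE 0.24, adjusted p = 0.00019) at 30 min in WT. Those labelled *atf21Δ* gave 0.89 (SE 0.14, adjusted p = 0.00014) and 1.40 (SE 0.14, adjusted p = 8.1e-07).

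*atg4*, the gene of the protease, had the lowest level before stress and the largest change of the 6. Its RPKM in WT was 1.61, 1.47 and 2.04 at 0 min, 4.76, 2.88 and 3.83 at 15 min and 5.61, 5.67 and 4.84 at 30 min. Under the *atf21Δ* label it was 1.40, 1.86 and 2.55, then 2.62, 3.02 and 3.50, then 5.08, 6.33 and 7.12. At both later times every library stood above every 0 min library in both strains as deposited. At 15 min 3.23% of features in WT and 3.33% under the *atf21Δ* label stood wholly above, and 47.8% and 44.8% wholly below. At 30 min 10.4% and 11.9% stood wholly above. In scaled log2 units the rise was 1.40 (SE 0.24, adjusted p = 0.00061) at 15 min and 1.76 (SE 0.24, adjusted p = 6.5e-05) at 30 min in WT, and 0.95 (SE 0.20, adjusted p = 0.0021) and 1.72 (SE 0.20, adjusted p = 5.4e-06) under the *atf21Δ* label. The 0 min values of this gene rest on 29 to 91 reads per library.

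*atg8* encodes the ubiquitin-like protein that is conjugated and carries the glycine codon shown above. In WT its RPKM was 6.08, 6.37 and 6.07 at 0 min, 8.13, 7.0 and 5.90 at 15 min and 7.51, 11.8 and 9.14 at 30 min. Under the *atf21Δ* label it was 5.02, 7.36 and 9.42 at 0 min, 5.66, 5.98 and 6.68 at 15 min and 8.77, 8.58 and 16.4 at 30 min. As deposited, the WT libraries of 30 min all stand above those of 0 min, as they do for 10.4% of features. Those labelled *atf21Δ* overlap until they are scaled, after which 26.0% of features stand wholly above. At 30 min the scaled log2 change was 0.92 (SE 0.23, adjusted p = 0.0092) in WT and 0.86 (SE 0.23, adjusted p = 0.012) under the *atf21Δ* label. At 15 min it was 0.64 in WT (adjusted p = 0.069) and 0.25 under the *atf21Δ* label (adjusted p = 0.50), neither of which passed; the WT value was called with voom (0.75, adjusted p = 0.047) and with quantile normalization (0.76, adjusted p = 0.029), and its adjusted p ran from 0.024 to 0.75 over all alternatives.

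*atg5*, whose protein receives Atg12, spread widely between replicates. Its RPKM in WT was 10.03, 6.17 and 5.98 at 0 min and 11.3, 8.35 and 7.68 at 30 min. Under the *atf21Δ* label it was 5.89, 9.80 and 13.4 at 0 min and 9.98, 11.6 and 14.9 at 30 min. The groups overlap as deposited in both strains, and after scaling stand at 5.46 to 8.29 against 9.71 to 12.1 in WT and 5.77 to 9.91 against 11.8 to 12.99 under the *atf21Δ* label. The scaled log2 change at 30 min was 0.67 in WT (SE 0.21, adjusted p = 0.039) and 0.65 under the *atf21Δ* label (SE 0.18, adjusted p = 0.016). The WT call was lost with no filter (adjusted p = 0.053) and with quantile normalization (adjusted p = 0.058). Leaving out some single libraries, also of 60, 120 or 180 min, lost it too.

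*atg9*, the gene of the membrane protein, had a low point at 15 min before its peak at 30 min. In WT its RPKM was 5.53, 5.74 and 5.33 at 0 min, 2.14, 3.94 and 0.959 at 15 min and 7.82, 8.00 and 8.57 at 30 min. Under the *atf21Δ* label it was 4.79, 6.34 and 6.43, then 2.89, 3.23 and 4.67, then 7.96, 8.40 and 11.4. As deposited, all 6 libraries of 15 min lie below those of 0 min in their strain, but so do 47.8% of features in WT and 44.8% under the *atf21Δ* label. *atg7* dipped on that scale too, with means of 5.18, 4.27 and 6.46 RPKM at 0, 15 and 30 min in WT. Under the *atf21Δ* label the *atg7* means were 5.76, 4.05 and 6.47 RPKM. After scaling, *atg7* at 15 min was at 0.21 in WT and at -0.04 under the *atf21Δ* label. The scaled fall of *atg9* at 15 min did not pass in WT (-0.81, SE 0.28, adjusted p = 0.057) or under the *atf21Δ* label (-0.22, SE 0.15, adjusted p = 0.35). The WT fall depends on single libraries: without replicate 2 (99 reads) it was -1.2 (adjusted p = 0.0016), and without replicate 3 (22 reads) it was -0.44 (adjusted p = 0.23). The climb from 15 to 30 min was called in both strains and was the largest such step among the members, at 1.69 (SE 0.28, adjusted p = 0.00036) in WT and 1.11 (SE 0.15, adjusted p = 3.1e-05) under the *atf21Δ* label. Against 0 min, *atg9* at 30 min was higher by 0.88 in WT (SE 0.28, adjusted p = 0.040) and by 0.89 under the *atf21Δ* label (SE 0.15, adjusted p = 0.00028). This WT call was lost with no filter (adjusted p = 0.057) and with a pseudocount of 0.1 (adjusted p = 0.055). It was also lost without some single libraries, including ones of 60, 120 or 180 min.

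**Figure D2:**
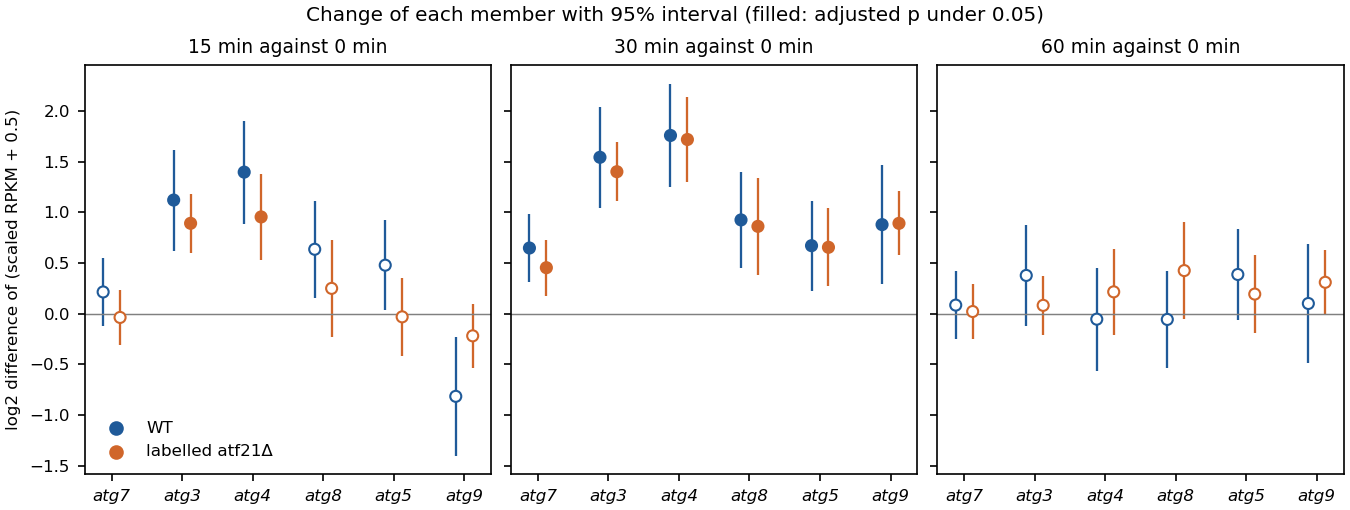
Scaled log2 difference from 0 min (vertical axis) of each member at 15, 30 and 60 min, with 95% intervals from limma, WT in blue and the libraries labelled atf21Δ in orange, filled where the adjusted p is under 0.05. All 12 points are filled at 30 min, atg3 and atg4 alone at 15 min, and none at 60 min.

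Several members came down between 30 and 60 min. Over this step *atg4* fell by 1.81 on the log2 scale in WT (adjusted p = 5.1e-05) and by 1.5 under the *atf21Δ* label (adjusted p = 2.7e-05), back to scaled levels of 1.52 and 1.95 RPKM from 6.47 and 6.30. *atg3* fell by 1.16 and by 1.32 over the same step (adjusted p = 0.0022 and 1.9e-06), and *atg7* fell by 0.56 and by 0.43 (adjusted p = 0.020 and 0.023). *atg8* was called lower over this step in WT alone (-0.98, adjusted p = 0.0056, against -0.44, adjusted p = 0.20, under the *atf21Δ* label) and *atg9* under the *atf21Δ* label alone (-0.58, adjusted p = 0.0090, against -0.78, adjusted p = 0.063, in WT). *atg5* was called lower in neither strain (-0.28, adjusted p = 0.44, in WT and -0.46, adjusted p = 0.081, under the *atf21Δ* label). Against 0 min it was still at 0.39 at 60 min in WT (95% interval -0.06 to 0.83, adjusted p = 0.27), and *atg8* at 0.43 under the *atf21Δ* label (95% interval -0.06 to 0.91, adjusted p = 0.22), so the lack of a call does not show a return to the first level. The difference between strains over this step was not tested. Among all features, 13.0% were called lower between 30 and 60 min in WT and 18.8% under the *atf21Δ* label, against 4 of 6 members in each. Over the step from 15 to 30 min, *atg9* was the only member called in WT (17.9% of features were called higher), while *atg3*, *atg4*, *atg5*, *atg7* and *atg9* were called higher under the *atf21Δ* label (20.6% of features). In WT *atg3*, *atg4*, *atg5* and *atg7* were at 0.42, 0.36, 0.19 and 0.43, beside 0.51, 0.76, 0.69 and 0.49 under the label. Whether the strains differ over the step from 15 to 30 min was not tested. The later steps, from 60 to 120 min and from 120 to 180 min, had 0 of 6 members called in either strain (1 of 24 comparisons at an unadjusted p under 0.05, and 0 called with voom). Of all features 4.69% were called higher and 5.13% lower over the first of these steps in WT, and 5.95% and 5.32% under the *atf21Δ* label; over the last step the shares were 0.0170% and 0.0340% in WT and 1.36% and 1.51% under the *atf21Δ* label.

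The scaling of the libraries bears on the calls. Without scaling, the median feature tested stood 0.38 lower at 30 min than at 0 min in WT and 0.30 lower under the *atf21Δ* label (log2 scale), and 0.46 and 0.43 lower at 15 min. On that scale 2 of 6 members were called higher at 30 min in WT (*atg3* and *atg4*) and 3 of 6 under the *atf21Δ* label (*atg3*, *atg4* and *atg9*), and *atg9* was called lower at 15 min, by 1.23 in WT (adjusted p = 0.0030) and by 0.65 under the *atf21Δ* label (adjusted p = 0.034). The rise of *atg3* at 15 min did not pass unscaled in WT (0.64, adjusted p = 0.16) or under the *atf21Δ* label (0.44, adjusted p = 0.066), nor did that of *atg4* under the *atf21Δ* label (0.56, adjusted p = 0.10). Scaling to the reads on protein-coding features, an alternative chosen after seeing the data, called 4 of 6 at 30 min in WT (all but *atg5* and *atg9*) and 3 of 6 under the *atf21Δ* label (*atg3*, *atg4* and *atg9*), with *atg9* again lower at 15 min (-1.01 and -0.47, adjusted p = 0.016 and 0.025). The shares of all features called at single times without scaling or with this scaling are not given here. These counts, and the calls of *atg9* as lower, thus stand without a background. rRNA took 37.5% to 51.1% of the reads on features at 0 min in WT and 43.8% to 57.5% at 30 min, and 37.2% to 44.5% and 34.2% to 44.7% under the *atf21Δ* label; its part in the unscaled values was not tested. The rises of *atg3* and *atg4* at 30 min were called under every scaling tried in both strains.

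**Figure D3:**
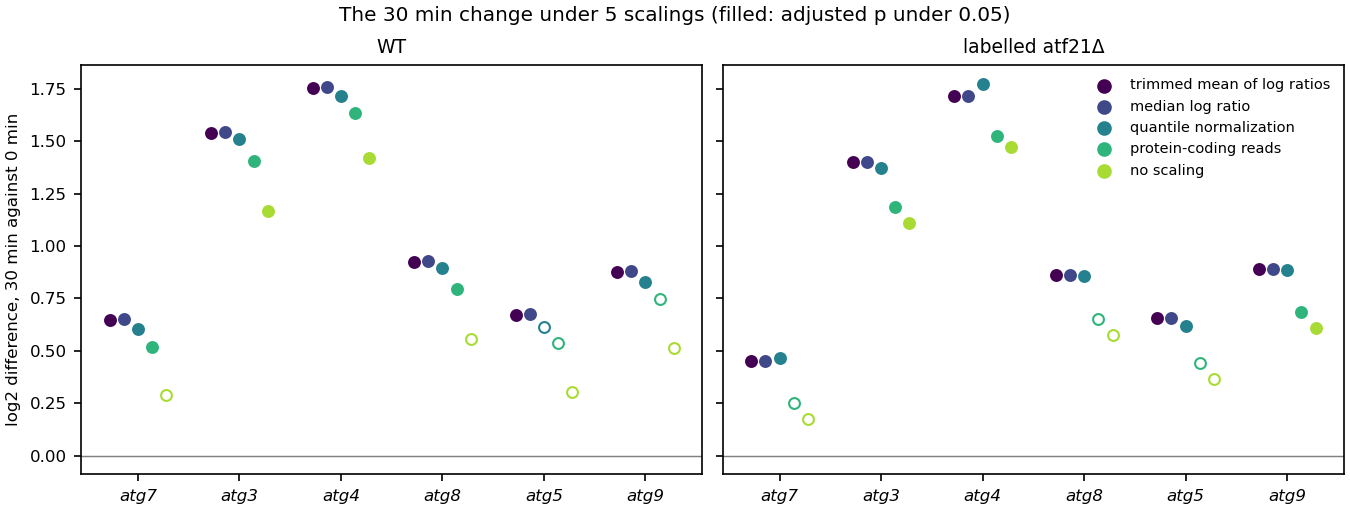
Log2 difference between 30 and 0 min (vertical axis) of each member under 5 scalings (colours), in WT (left) and in the libraries labelled atf21Δ (right), filled where the adjusted p is under 0.05. Every value is above 0; atg3 and atg4 are filled throughout, and without scaling atg5, atg7 and atg8 are open in both strains and atg9 in WT.

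Leaving out single libraries moved the weaker calls too. Without WT replicate 3 of 0 min, or without WT replicate 2 of 30 min, 3 of 6 members were called higher at 30 min in WT. Without replicate 1 of 0 min under the *atf21Δ* label, 3 of 6 were called there.

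No difference between the strains was called for any member. The strain-by-time interaction gave 0 of 6 (limma F-test, unadjusted p from 0.21 to 0.83, so 0 of 6 at an unadjusted p under 0.05, and 0 with voom on the reads), where 0.0340% of features passed. At the single times, 0 of the 36 member comparisons passed (2 at an unadjusted p under 0.05, and 0 called with voom), where the share of features that passed was 0.0170% at 0 min (higher under the label), 0.0340% at 15 min (higher), 0.0340% in each direction at 60 min, 0.0170% at 180 min (lower), and 0 at 30 and 120 min. At 30 min the differences, *atf21Δ* label minus WT, ran from -0.20 to 0.18 on the log2 scale, and their 95% intervals reach from -0.52 to 0.60. At 15 min the differences lay further apart with the same errors, their intervals reached from -0.88 to 0.99, and the largest difference was that of *atg9* (0.53, adjusted p = 0.76). It became a call (0.91, adjusted p = 0.022) without WT replicate 2 of 15 min, and was 0.16 (adjusted p = 1.0) without WT replicate 3.

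Before stress, the levels per length fell in the same order under both labels: *atg5*, *atg3*, *atg8*, *atg9*, *atg7* and *atg4*. In WT the means were 7.39 ± 2.29 RPKM for *atg5*, 7.39 ± 1.86 for *atg3*, 6.17 ± 0.168 for *atg8*, 5.54 ± 0.204 for *atg9*, 5.18 ± 0.666 for *atg7* and 1.71 ± 0.299 for *atg4* (SD, n = 3). The ranges of *atg5*, *atg3* and *atg8* overlap from each to the next, as do those of *atg9* and *atg7*; *atg8* stands above *atg9*, and *atg4* below all others. Where replicates spread more, under the *atf21Δ* label, *atg4* alone stood apart from its neighbour. At 30 min *atg3* led with 17.3 ± 4.40 RPKM in WT and 20.0 ± 2.46 under the *atf21Δ* label, apart from the next member in both. *atg4*, at 5.37 ± 0.462 and 6.18 ± 1.03 RPKM, then overlapped *atg7*, at 6.46 ± 1.06 and 6.47 ± 0.164. The protease gene thus reached the range of the E1 gene at the peak of the response.

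Of the 6 members, 4 share part of their span with a gene on the opposite strand, in strand-specific libraries; whether the counting used the strand is not given in the sources used here, so the reads in the shared bases are uncertain. The overlap is 1745 bases for *atg7* and *mde4* (a monopolin subunit, which acts at kinetochores), 70.5% of *atg7* and 53.3% of *mde4*. It is 65 bases for *atg3* and SPBC3B9.05, 75 bases for *atg5* and *usp105* (named *prp39* in RefSeq, a U1 snRNP splicing factor) and 132 bases for *atg8* and SPBP8B7.23 (*rnf10* in RefSeq). *atg4* and *atg9* overlap no annotated feature. SPBP8B7.23 moved with *atg8*: it rose at 30 min by 0.85 in WT and 0.90 under the *atf21Δ* label (adjusted p = 8.4e-05 and 2.4e-07). *usp105*, opposite *atg5*, was at -0.49 in WT (adjusted p = 0.061), which did not pass, and fell by 0.77 under the *atf21Δ* label (adjusted p = 0.0054). *mde4* (-0.45 and -0.15, adjusted p = 0.21 and 0.66) and SPBC3B9.05 (-0.31 and -0.28, adjusted p = 0.56 and 0.40) did not pass. Over the 36 libraries, which share strains, times and scaling, Pearson's r on the log2 scale was 0.69 for *atg8* and SPBP8B7.23, -0.60 for *atg5* and *usp105*, -0.32 for *atg7* and *mde4* and -0.26 for *atg3* and SPBC3B9.05.

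**Figure D4:**
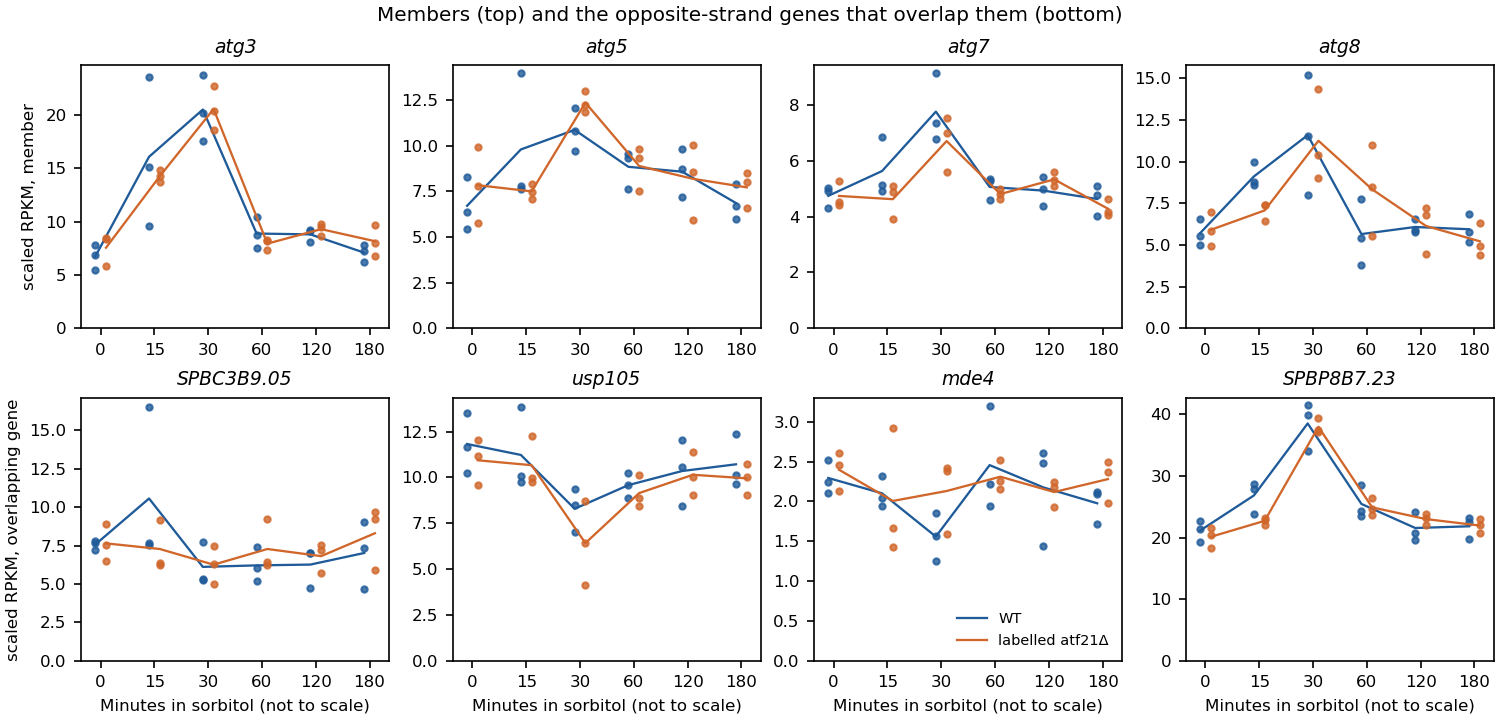
Scaled RPKM (vertical axes, from 0) against minutes in sorbitol for the 4 members that overlap another gene (top) and their opposite-strand partners (bottom), with points for libraries and lines for the means of 3, WT in blue and the libraries labelled atf21Δ in orange. SPBP8B7.23 peaks at 30 min as atg8 does, while usp105 has its low point there.

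The stress response of fission yeast runs largely through the bZIP factor Atf1, which binds the cyclic AMP response element, and the promoters of the members were searched for its core TGACGT (also as its complement ACGTCA) and for the CCCCTC stress element (also as GAGGGG). The windows ran from 250 bases before to 50 bases after the RefSeq gene start on ASM294v3. TGACGT was in 0 of the 6 member windows and in 5.91% of 5112 protein-coding genes. CCCCTC was in 1 of 6, that of *atg9*, and in 2.11% of all. The match begins 233 bases before the *atg9* start (chromosome II, 3025987 to 3026016 on ASM294v3, minus strand) and is shown with its flanks, the element in capitals, because it is the only one found. A match of letters is no binding site, and their absence from this window says nothing of the factors.
atg9, upstream window: gctttcagagtaCCCCTCgctgatgtttga

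Beyond the 6 members, 33 other autophagy genes were taken as a list, itself chosen with results of these data known, and all were tested. In WT 17 were called higher and 1 lower at 30 min, and under the *atf21Δ* label 19 higher and 3 lower, with median log2 changes of 0.67 and 0.64. Of all features 15.4% were called higher and 13.4% lower in WT, and 20.0% and 18.9% under the *atf21Δ* label, and these shares are the background of the counts by role that follow. Without scaling the split was 10 higher and 5 lower in WT, and 12 and 5 under the *atf21Δ* label. The F-test over time called 23 and 26 of the 33, beside 51.8% and 62.3% of all features. At 15 min 4 were higher and 3 lower in WT, and 7 and 6 under the *atf21Δ* label. There 11.2% of all features were called higher and 11.4% lower in WT, and 13.9% and 13.7% under the label. The WT counts at 15 min are near those shares. Without scaling the 15 min counts were 1 and 8 in WT, and 3 and 10 under the label. On that scale the median feature was at -0.46 at 15 min in WT and at -0.43 under the label. All shares given here belong to the scaled fit, so the unscaled counts of both times have no background here.

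Of the 5 genes of the Atg1 kinase complex, which starts autophagy, 4 rose at 30 min in both strains (15.4% and 20.0% of all features did). *atg101* (*mug66* in the table) rose most, by 2.32 in WT and 2.22 under the *atf21Δ* label, and was already up by 1.94 and 1.82 at 15 min. *atg13* rose by 1.34 and 1.30, the kinase gene *atg1* by 1.29 and 1.08 and the scaffold gene *atg17* by 0.70 and 0.68. *atg11* (*taf1* in the table) fell at 15 min instead, by 1.55 and by 1.17 (adjusted p = 1.9e-06 and 1.4e-06), and at 30 min was at -0.25 in WT (adjusted p = 0.35) and still lower under the *atf21Δ* label (-0.42, adjusted p = 0.021).

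Of the 6 phosphatidylinositol 3-kinase genes, 2 were called higher and 0 lower at 30 min in WT, and 2 higher and 1 lower under the *atf21Δ* label. *vps34* (*pik3* in the table), the catalytic subunit, rose by 1.12 and 1.01 at 30 min, and *atg14* (SPAC25A8.02), which directs the kinase to autophagy, by 0.85 and 1.20. The symbol *atg14* in the table belongs to another gene, *vps38* in RefSeq, which serves endosomal sorting and was at -0.64 in WT and -0.38 under the *atf21Δ* label without passing (adjusted p = 0.11 in both). *atg6*, with 0.63 and 0.75, did not pass either (adjusted p = 0.10 and 0.055). It had few reads, 14 to 30 per library at 0 min in WT and 10 to 23 under the *atf21Δ* label. With no filter and with no trend *atg6* was called higher at 30 min in both strains. Under the *atf21Δ* label it was also called with 1 fit, the replicate block and voom. *atg38* fell under the *atf21Δ* label (-0.38, adjusted p = 0.046) and was not called in WT (-0.22, adjusted p = 0.31). The call of *atg38* was lost with no filter and with no trend. *vps15* was called at 30 min in neither strain.

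Of the 3 remaining conjugation genes, *atg16* alone rose, by 1.11 in WT and 1.06 under the *atf21Δ* label (adjusted p = 0.0040 and 0.00075). *atg12*, the second ubiquitin-like protein, was at -0.07 and -0.69 (adjusted p = 0.95 and 0.16) and its E2 gene *atg10* at 0.27 and 0.42 (adjusted p = 0.72 and 0.070). Among lipid transfer genes and their partners, *atg18* rose by 1.18 and 0.89, and *atg2* at 0.29 and 0.26 did not pass at 30 min (adjusted p = 0.17 and 0.057). *atg2* was called higher at 15 min in WT (0.41, adjusted p = 0.041). *atg1802* rose at 30 min under the *atf21Δ* label (0.54, adjusted p = 0.015) and was at 0.31 in WT (adjusted p = 0.50), and *atg1803* at 0.17 and 0.29 did not pass (adjusted p = 0.69 and 0.25).

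Of the sorting nexin and receptor genes, 5 of 10 rose in WT and 6 under the *atf21Δ* label (15.4% and 20.0% of all features), led by the nexin gene *atg20* (1.88 and 2.32). *epr1*, an autophagy receptor for the endoplasmic reticulum, rose by 0.84 and 0.61. The mitophagy receptor gene *atg43* fell under the *atf21Δ* label (-0.62, adjusted p = 0.0041), with -0.44 in WT (adjusted p = 0.18). *hfl1*, which acts with Atg8 at the vacuole, fell in WT (-0.62, adjusted p = 0.012), with -0.16 under the *atf21Δ* label (adjusted p = 0.47). Of the 5 genes of breakdown in the vacuole, 4 rose in both strains, beside the same shares of all features: the protease genes *isp6* (2.48 and 2.53) and *psp3* (1.16 and 1.44), *atg22* (1.28 and 1.31), which exports amino acids from the vacuole in *S. cerevisiae*, and *cpy1*, for carboxypeptidase Y (0.67 and 0.73).

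**Figure D5:**
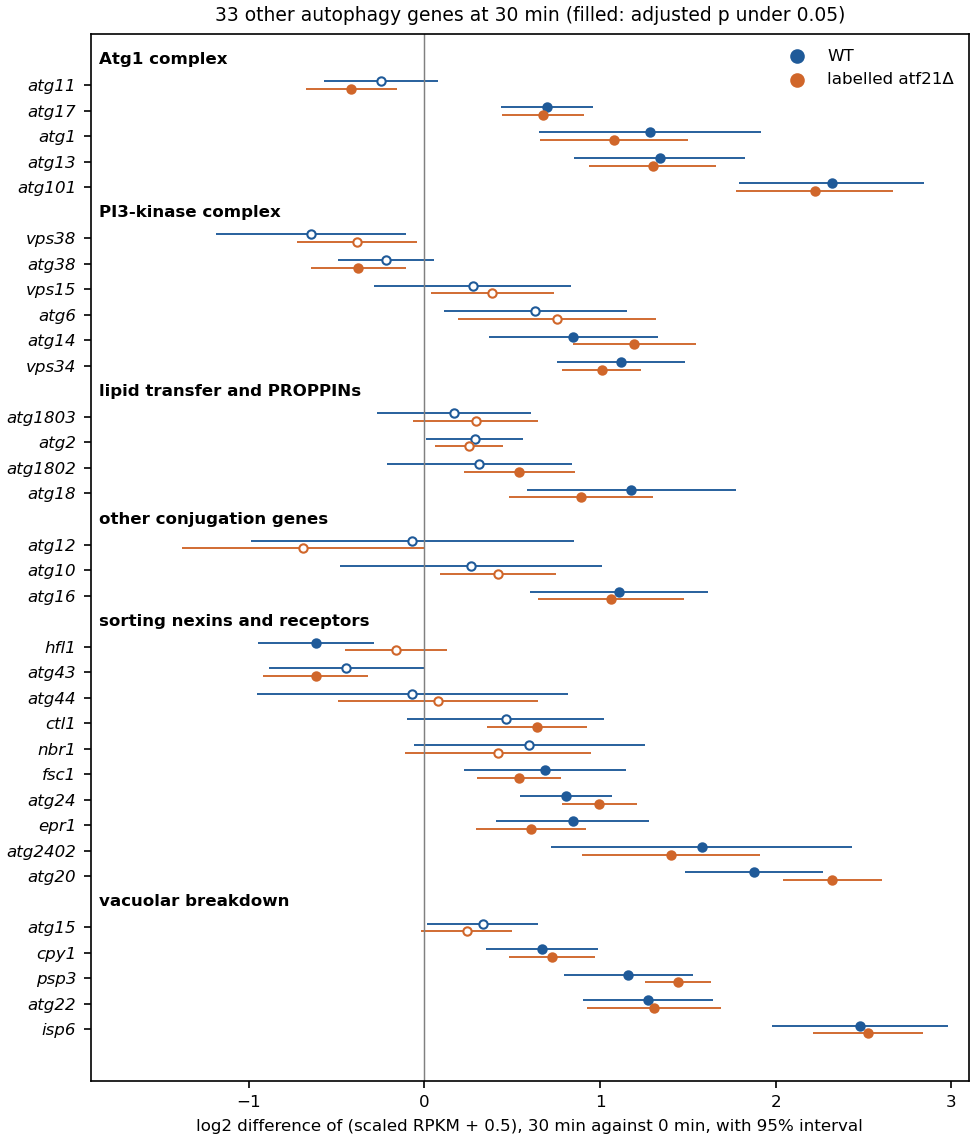
Scaled log2 difference between 30 and 0 min (horizontal axis) with 95% intervals for the 33 other autophagy genes, grouped by role, WT in blue and the libraries labelled atf21Δ in orange, filled where the adjusted p is under 0.05. Most filled points lie to the right of 0, led by isp6, atg101 and atg20, and vps38 and atg38 lie to the left in the kinase group.

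The genes whose scaled log2 levels ran most like a member's over the 36 libraries were SPBC20F10.03 and SPCC16A11.15c for *atg3* (r = 0.94 for both), and SPAC2C4.17c (*msy2* in RefSeq) and SPAC6B12.07c (*pqr1*) for *atg4* (r = 0.94 for both). For *atg8* they were *atg4* and *atf21* (r = 0.80 for both), for *atg5* SPBP22H7.03 (*sbg1*, r = 0.81) and SPCC1259.12c (*gid1*, r = 0.78), for *atg7* SPBC713.09 (r = 0.84) and *syj2* (r = 0.81), and for *atg9* SPBC18H10.05 (r = 0.90) and *cat1* (r = 0.87). Among the members, *atg3* and *atg4* ran most alike (r = 0.85), and *atg9* gave r from 0.21 to 0.38 with the others. Within WT alone *atg9* gave 0.06 to 0.27, and within the libraries labelled *atf21Δ* 0.44 to 0.76, the highest with *atg5*. These r describe libraries that share strains and times.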

How the data were processed

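Strand-specific total RNA of 36 libraries was sequenced by the authors as single-end reads on a SOLiD instrument after rRNA reduction and aligned with SHRiMP2 to PomBase release 11. Reads with more than 1 locus were discarded. The deposited values are RPKM per annotated feature, which adjusts for feature length and library total, with no further scaling between libraries. For their own tests the authors normalized the raw counts further. Every value multiplied by the feature length was a whole multiple of a step fitted for its library (100% of 253404 values, tolerance 0.01). The multiples were taken as the reads, and the steps gave the library totals of 7457173 to 20126545 reads. No replicate was pooled, and all replicates are biological per the study's methods.

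Each library was divided by a trimmed mean of log ratios (30% of ratios and 5% of levels trimmed at each end; factors from 0.684 to 1.35), 0.5 was added and log2 taken, so that fold changes of low genes are understated. The tests took the 5882 features whose RPKM reached 1 in more than 6 libraries, all 6 members among them, and used limma 3.58.1 in R 4.3.3 (time as a factor within each strain, mean-variance trend, Benjamini-Hochberg over all features and the times of a comparison). Strains were compared in 1 fit of all 36 libraries. An RPKM fit was kept as the main one because the deposited values are not counts; voom on the recovered reads was an alternative. The procedure was run on simulated reads in which few features changed, and the outcome is not given here. That simulation does not probe the scaling where as many features change as in these data. The members and lists were chosen with earlier results of these data known. Named were the members, features overlapping them, the listed autophagy genes, the 2 features most correlated with each member, *atf21*, *gpd1*, *ctt1* and *hsp9*. Motifs and sequences were read with Python 3.11.15 from RefSeq ASM294v3 by its own annotation; all other coordinates are those of the table. Alternatives were pseudocounts of 0.1 and 1, other scalings and none, other filters, no trend, 1 fit, the replicate block and leaving out each library.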

Additional observations from a re-analysis of the deposited data

How the results depend on the processing

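Of the 30 changes called for single members, none reversed under any alternative, and 30 of 30 stayed called with a pseudocount of 1, no trend, scaling to the median log ratio, the replicate block and voom on recovered reads. With no scaling 15 of 30 stayed called, and with scaling to the reads on protein-coding features 22 of 30. Without scaling the members that passed the F-test in WT were 3, the calls at single times 4 in WT and 4 under the *atf21Δ* label, the calls between successive times in WT 4, the members higher at 30 min 2 and 3, and the listed genes higher at 30 min 10 and 12. On that scale 3433 of 5882 features passed the F-test in WT. Scaling to protein-coding reads gave 3 members higher at 30 min under the *atf21Δ* label, and voom gave 11 calls between successive times in WT, beside 7. With the filter raised to an RPKM of 5, *atg4* was not tested.

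Leaving out each library in turn gave 4 to 6 members passing the F-test in each strain, 5 to 9 calls at single times in each, 3 to 6 members higher at 30 min in each, and 6 to 9 (WT) and 9 to 12 (*atf21Δ* label) calls between successive times. It gave 0 to 1 calls between strains at single times and 0 with an interaction, 20 to 26 and 23 to 26 listed genes passing the F-test, and 15 to 17 and 19 to 20 higher at 30 min.

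With the replicate block 6 members passed the F-test in each strain, with 9 and 8 calls at single times and 12 between successive times under the *atf21Δ* label. The block also called *atg8* higher at 15 min in WT (0.64, adjusted p = 0.024). The labels do not say what a replicate number shares, and not every same-numbered pair correlated, although more did than differently numbered ones: 60 of 90 same-numbered pairs within a strain correlated above 0.1 (median 0.17), against 16 of 180 differently numbered pairs (median -0.07), and 28 of 36 libraries correlated best with their own number, a hint of pairing from the data and not from the design. Few reads limit the members most at 15 and 60 min in WT, where *atg9* and *atg4* fell to 22 and 14 reads in 1 library each.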

Other observations

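Low points at 15 min followed by a rise at 30 min, as in *atg9*, were also measured for other genes of the autophagy list. *ctl1*, whose product interacts with Atg9 in fission yeast, fell by 0.95 in WT and by 0.90 under the *atf21Δ* label at 15 min (adjusted p = 0.021 and 8.8e-05) and at 30 min was at 0.46 (adjusted p = 0.30) and 0.64 (adjusted p = 0.0021). *atg22* was at -0.48 in WT (adjusted p = 0.080) and fell by 0.94 under the *atf21Δ* label (adjusted p = 0.0010) at 15 min, and rose by 1.28 and 1.31 at 30 min. The nexin gene *atg2402* was at -1.06 and -0.25 at 15 min without passing (adjusted p = 0.094 and 0.53), and rose by 1.58 and 1.40 at 30 min (adjusted p = 0.013 and 0.00034). These genes were singled out after their values were seen. The step from 15 to 30 min was fitted gene by gene, but its values are not given here, and the list was not tested as a set.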
